A study of Mus musculus with 6 samples.

Results

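Vanins and the enzymes of coenzyme A synthesis were described as a group of 9 genes, taken by name from the deposited table of 55401 mouse genes. They were Vnn1, Vnn3, Pank1, Pank2, Pank3, Pank4, Ppcs, Ppcdc and Coasy, and each was found under 1 Ensembl identifier. The group was selected on the difference between DKD and Control counts in these libraries together with the genes' known roles, so every difference between DKD and Control given for the 9 genes is a description and not a test. RNA came from glomeruli, the filtering units of the kidney, isolated from mice in 2 groups, DKD and Control, with 3 libraries each. The series title spells DKD out as diabetic kidney disease. Strain, age, sex and the way the disease was brought about are not given in the labels, which call both groups by genotype as DKD or Control. The labels do not say that each library came from its own animal, so p-values measure only the spread between these libraries, which may be technical.

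Coenzyme A carries acyl groups in fatty acid oxidation, lipid synthesis and the citric acid cycle, and cells make it from pantothenate, a B vitamin. Pantothenate kinases carry out the first and rate-limiting step, Ppcs adds cysteine, Ppcdc removes a carboxyl group, and the bifunctional enzyme encoded by Coasy makes the last conversions. Vanins work in the opposite direction, outside the cell, as pantetheinases that split pantetheine into pantothenate and cysteamine. In mouse, Vnn1 and Pank1 are known targets of the fatty acid receptor PPAR alpha, and kidney Vnn1 is known mainly from tubule cells.

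Of the 9 genes, Vnn1 stood apart, with 2.80 times as much transcript in DKD as in Control, while none of the 7 synthesis genes and not Vnn3 separated the groups. Levels are given as CPM (a gene's count relative to its TMM-scaled library total), and totals ran from 71154026 to 83576494 counts per library. All 9 genes passed the filter on low counts. By edgeR's quasi-likelihood test at an adjusted p under 0.05, 1 of 9 genes was called, Vnn1, higher in DKD, beside 1.16% of the 19717 genes tested. The choice of the genes used this contrast, so nothing is read from that count. The groups did not overlap for 1 of 9, beside 30.7% of all genes tested. The median log2 fold change (DKD over Control) of the 9 genes was −0.099, and that of all genes tested was 0.003.

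The libraries held RNA of the nephron beyond the glomerulus. A list of 26 proximal tubule markers took 3.04%, 3.21% and 2.24% of the counts in DKD replicates 1 to 3, against 3.66%, 3.90% and 5.75% in Control replicates 1 to 3. Markers of the podocyte, the epithelial cell of the glomerular filter, took 0.0360% ± 0.00673 of the counts in DKD and 0.0595% ± 0.0165 in Control (mean ± SD, n = 3 each). The podocyte gene Nphs1 was present at 31.4 ± 8.67 CPM in DKD, against 49.0 ± 7.20 CPM in Control. In such bulk samples, fewer cells of a type and less RNA per cell cannot be told apart. Control replicate 3 had the highest tubule marker share of the 6 libraries, and values without it are given below. The part of these markers in the results below was not tested.

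The genes of Pank1, Pank2 and Pank3 share a feature of position. Each holds a miRNA gene of the same family in an intron, on its own strand, in the GRCm38 annotation. The mature sequences are shown because their seeds (bases 2 to 8, in capitals) tie together 3 kinase genes on different chromosomes, at chr19:34820700-34820722 on the minus strand, chr2:131288103-131288125 on the plus strand and chr11:35782447-35782469 on the plus strand (RefSeq, GRCm38.p6).
mmu-miR-107-3p, in Pank1: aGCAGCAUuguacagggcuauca
mmu-miR-103-3p from Mir103-2, in Pank2: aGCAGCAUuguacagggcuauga
mmu-miR-103-3p from Mir103-1, in Pank3: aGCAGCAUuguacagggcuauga
The seed GCAGCAU is identical in all 3 sequences. Polyadenylated RNA does not measure mature miRNAs, and the rows of Mir107 and Mir103-1 held 0 counts in every library, while Mir103-2 held 2 counts in DKD replicate 3 and 0 elsewhere. A count of 0 allows up to 3 counts. The kinases that host these miRNAs are described by their own transcripts below.

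Vnn1 (ENSMUSG00000037440), on chromosome 10, encodes a pantetheinase anchored to the outer cell surface. Its transcript was measured at 309, 278 and 351 CPM in DKD replicates 1 to 3, against 117, 106 and 111.5 CPM in Control replicates 1 to 3. Every DKD library lay above every Control library, with 277.8 CPM as the lowest DKD value and 116.8 CPM as the highest Control value. Means were 312 ± 36.5 CPM in DKD and 111 ± 5.43 CPM in Control (SD, n = 3 each), with a log2 fold change of 1.49 ± 0.14 (SE). These values rested on 20056 to 25010 reads in DKD and 8441 to 9769 reads in Control. No 31-base word of the Vnn1 transcripts occurs in a transcript of another annotated gene, Vnn3 included. Leaving out 1 library at a time kept the log2 fold change between 1.40 and 1.55. The edgeR call was kept without Control replicate 3 and without DKD replicate 2, where 386 and 298 of all genes tested were called. It was lost without Control replicate 1, Control replicate 2, DKD replicate 1 or DKD replicate 3, where 1, 13, 4 and 10 were called. The reason for this difference was not tested.

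Vnn3 (ENSMUSG00000020010), the other vanin gene of the list, lies on the same chromosome as Vnn1 and was close to undetected. It had 0, 4 and 15 counts in DKD replicates 1 to 3, against 15, 12 and 0 counts in Control replicates 1 to 3. Both groups held a library at 0, where up to 3 counts are allowed, or 0.0448 CPM in DKD replicate 1 and 0.0396 CPM in Control replicate 3. The groups overlapped, and the log2 fold change of −0.30 ± 1.41 (SE) carries an error larger than itself and ran from −1.90 to 0.27 over the alternatives. It passed the filter through 3 libraries, 1 of DKD and 2 of Control. A difference in Vnn3 was not detectable at this depth.

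**Figure D1:**
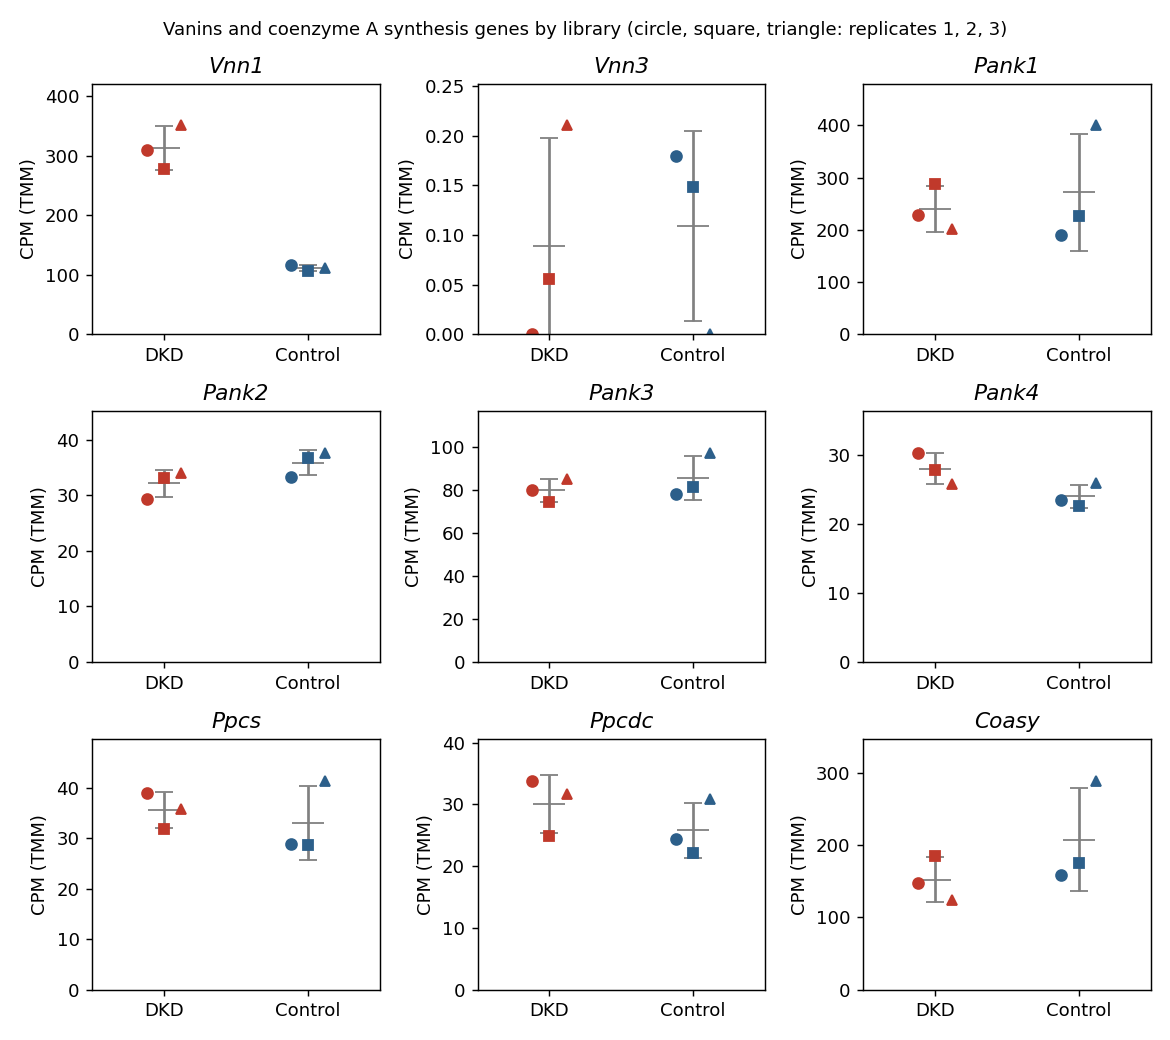
Transcript level in CPM (TMM-scaled, each panel from 0) of the 9 genes in 3 DKD and 3 Control libraries; points are libraries, bars are mean ± SD. Vnn1 is the 1 panel in which the groups are apart (lowest DKD 277.8 CPM, highest Control 116.8 CPM), and Pank1 and Coasy show Control replicate 3 far above the other libraries (400 and 289 CPM).

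The 4 pantothenate kinase genes did not separate the groups. Pank1, the most abundant of them, was measured at 228, 288 and 202 CPM in DKD replicates 1 to 3, against 190.4, 227 and 400 CPM in Control replicates 1 to 3. Control replicate 3 alone was higher than every DKD library, and the other 2 Control libraries lay within or just below the DKD range. The log2 fold change of Pank1 was −0.19 ± 0.29 (SE) with all libraries and 0.20 ± 0.18 without Control replicate 3, so its sign rested on that library. Within groups Pank1 varied by 18.3% in DKD and 41.1% in Control (coefficient of variation), while Vnn1 varied by 11.7% in DKD and 4.87% in Control.

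Pank2, whose human counterpart is mutated in a neurodegenerative disease with iron in the brain, was measured at 29.4, 33.1 and 33.9 CPM in DKD replicates 1 to 3, against 33.3, 36.7 and 37.6 CPM in Control replicates 1 to 3. The ranges overlapped between 33.3 and 33.9 CPM, and the log2 fold change came to −0.16 ± 0.11 (SE). Exons of Rnf24 on the opposite strand cover 22.9% of the Pank2 exons, and the sources used here do not say how the counting treated strand, so Pank2 is uncertain. Pank3, a cytosolic kinase, was measured at 80.0, 74.2 and 85.0 CPM in DKD replicates 1 to 3, against 77.9, 81.3 and 97.0 CPM in Control replicates 1 to 3. Its groups overlapped between 77.9 and 85.0 CPM, with a log2 fold change of −0.099 ± 0.125 (SE). Without Control replicate 3 that value was 0.0019.

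Pank4 carries a kinase-like domain held to be inactive in mammals and a phosphatase domain that acts on phosphopantetheine. It was measured at 30.2, 27.8 and 25.8 CPM in DKD replicates 1 to 3, against 23.5, 22.6 and 25.9 CPM in Control replicates 1 to 3. The lowest DKD value met the highest Control value (25.78 and 25.86 CPM), and the other DKD values lay above all Control values. The log2 fold change was 0.22 ± 0.11 (SE), which became 0.096 when library totals alone set the scale.

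Taken per length, Pank1 led the kinase transcripts in both groups. Pank1 made up 53.0% ± 4.96 of the summed kinase level in DKD and 54.8% ± 7.43 in Control (CPM per kilobase of exons, SD, n = 3 each). Pank3 followed with 20.1% ± 3.03 in DKD and 20.2% ± 2.71 in Control, Pank4 with 14.8% ± 1.47 in DKD and 12.1% ± 2.31 in Control, and Pank2 with 12.1% ± 1.41 in DKD and 12.9% ± 2.50 in Control. All of these differences were smaller than the larger of the SDs beside them, except that of Pank4 (2.70 percentage points). The summed level was 54.3 ± 4.77 CPM per kilobase in DKD and 58.7 ± 15.7 CPM per kilobase in Control.

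The enzymes that follow the kinases also overlapped between groups. Ppcs, which joins cysteine to phosphopantothenate, was measured at 39.0, 31.9 and 35.9 CPM in DKD replicates 1 to 3, against 28.9, 28.6 and 41.4 CPM in Control replicates 1 to 3. Control replicate 3 was again the highest of the 6 libraries, and the log2 difference came to 0.11 ± 0.17 (SE), or 0.31 ± 0.12 without that library. Under library totals the sign of Ppcs turned, at −0.0027. Ppcdc, the decarboxylase of the next step, was measured at 33.8, 24.8 and 31.6 CPM in DKD replicates 1 to 3, against 24.3, 22.2 and 30.8 CPM in Control replicates 1 to 3. The highest Control value lay between the DKD values, with a log2 fold change of 0.22 ± 0.17 (SE).

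Coasy encodes the enzyme of the last conversions to coenzyme A. Its transcript was measured at 147, 185 and 124 CPM in DKD replicates 1 to 3, against 159, 175 and 289 CPM in Control replicates 1 to 3. DKD replicate 2 lay above 2 of the Control libraries, and Control replicate 3 lay above all others. The log2 fold change of −0.45 ± 0.26 (SE) was −0.14 ± 0.18 without Control replicate 3. Coasy and Pank1 had this in common, that 1 Control library set most of the difference between means.

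**Figure D2:**
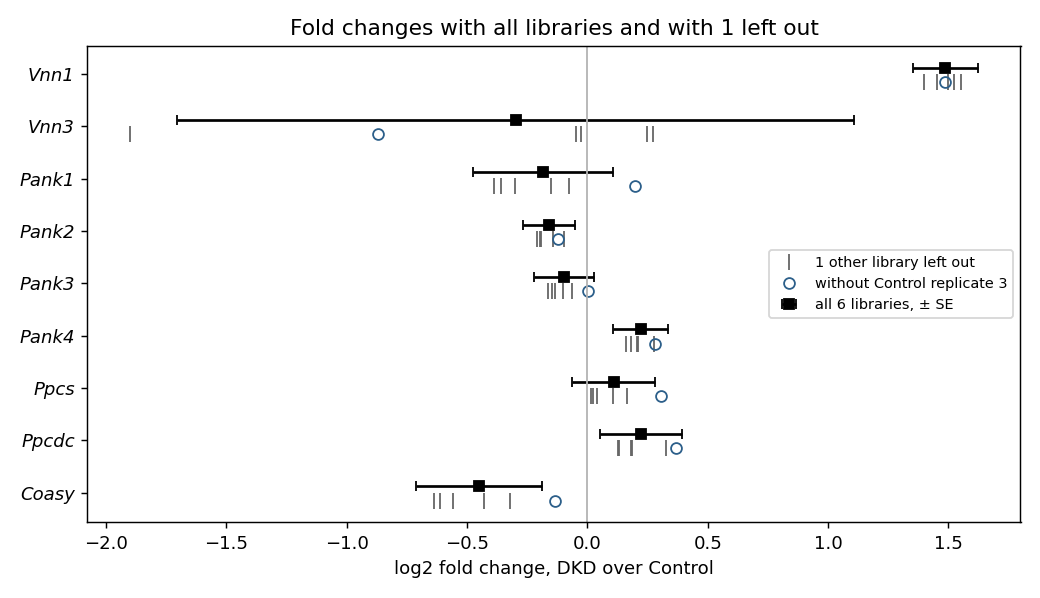
Log2 fold change (DKD over Control) of each gene with all 6 libraries (squares, ± SE), without Control replicate 3 (open circles) and with another library left out (ticks). Vnn1 stays between 1.40 and 1.55, and the circle of Pank1 lies at 0.20, on the other side of 0 from its square at −0.19.

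Compared per length, the order of the genes differed between groups at its top. In DKD the order was Vnn1, Coasy, Pank1, Ppcs, Pank3, Pank4, Pank2, Ppcdc and Vnn3, and no neighbours in it overlapped between libraries. Vnn1 stood at 129 ± 15.1 CPM per kilobase in DKD, above 98.2% of 19684 genes with a known length, and at 46.1 ± 2.25 CPM per kilobase in Control, above 95.2%. Coasy came second in DKD with 53.0 ± 10.8 CPM per kilobase and first in Control with 72.5 ± 24.8 CPM per kilobase. In Control, Vnn1 and Pank1, Pank1 and Ppcs, and Pank2 and Pank4 could not be put in order, since their libraries overlapped. The Vnn1 level per kilobase was above the sum of the 4 Pank genes, Pank4 included, in all 3 DKD libraries (means of 129 for Vnn1 and 54.3 for the sum). In Control the mean was 46.1 for Vnn1 and 58.7 for the sum, but the order was not the same in every library. Vnn1 was above the sum in Control replicate 1 (48.4 and 47.1) and below it in Control replicate 2 (43.9 and 52.4) and Control replicate 3 (46.2 and 76.6). Ppcdc moved from place 8 to place 6 in both groups when the longest transcript replaced all exons, since its annotated exons (5803 bases) are longer than that transcript (2797 bases).

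**Figure D3:**
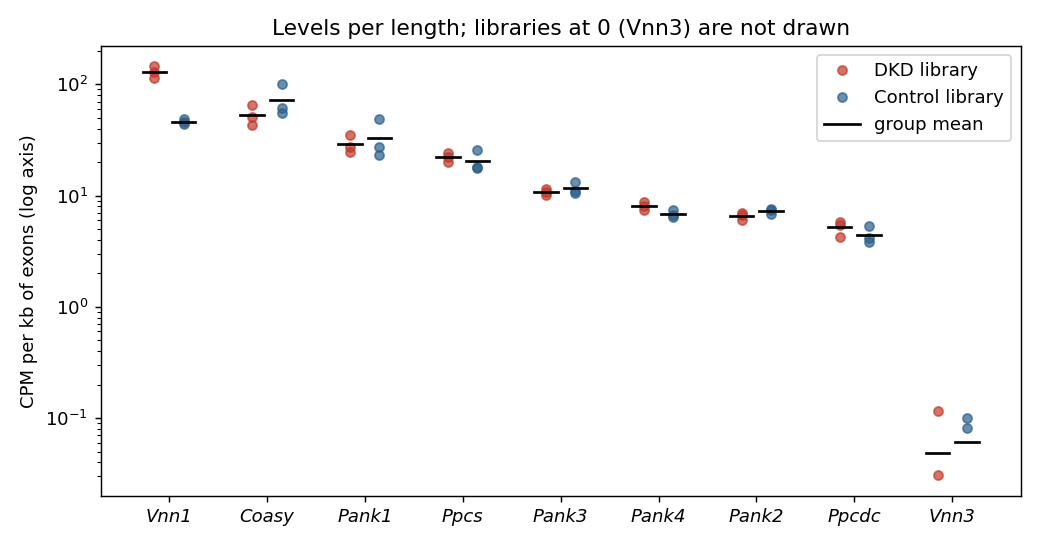
Level per length (CPM per kilobase of exons, log axis) of the 9 genes, ordered by the DKD mean; points are libraries and lines are means. Vnn1 leads in DKD at 129 and Coasy leads in Control at 72.5, while Vnn3 lies under 0.12 in every library.

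Among themselves, some of the synthesis genes had like profiles over the 6 libraries. Likeness was taken as the root mean square difference between log2 CPM profiles, each centred on its own mean. Ppcs and Ppcdc were the closest pair of 2 successive enzymes at 0.091, followed by Pank2 and Pank3 at 0.11, and Pank1 and Coasy, the first and last enzymes, differed by 0.16. These are descriptions over 6 libraries that share 2 groups. The promoters of the closest pair are shown with AGGTCA, the core element of nuclear receptors such as PPAR alpha, read on both strands, in capitals (250 bases before to 50 after the start, RefSeq, GRCm38.p6). They lie at chr4:119422371-119422670 and chr9:57439687-57439986, both on the minus strand.
Ppcs: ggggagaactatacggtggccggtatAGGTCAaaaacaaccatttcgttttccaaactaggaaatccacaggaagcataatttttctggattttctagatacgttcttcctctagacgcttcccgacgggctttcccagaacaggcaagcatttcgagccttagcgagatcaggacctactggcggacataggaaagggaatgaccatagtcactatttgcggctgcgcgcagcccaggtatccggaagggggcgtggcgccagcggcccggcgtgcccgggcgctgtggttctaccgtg
Ppcdc: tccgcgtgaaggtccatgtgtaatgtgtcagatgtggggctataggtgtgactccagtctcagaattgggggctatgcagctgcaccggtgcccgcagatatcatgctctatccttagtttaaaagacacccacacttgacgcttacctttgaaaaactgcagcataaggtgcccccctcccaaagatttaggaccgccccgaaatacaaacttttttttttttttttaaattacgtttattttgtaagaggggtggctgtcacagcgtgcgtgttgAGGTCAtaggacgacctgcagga
Each holds the element once. Promoter windows matched 7 of the 9 genes, with 10 windows in all, and Vnn1 and Coasy were not searched. The element was found in 2 of these 10 windows, beside 16.3% of 32851 windows of the same length. The direct repeat AGGTCANAGGTCA, which contains the element on both sides of N, was in 0 of the 10 windows and in 0.0396% of all windows, which says only that these letters are not in these stretches.

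Because Vnn1 is known from the tubule, its counts were also set against those of the 26 proximal tubule markers in the same library, a measure chosen after the data were seen. Vnn1 had 9.27, 8.77 and 14.8 counts per 1000 marker counts in DKD replicates 1 to 3, against 3.598, 3.03 and 1.76 in Control replicates 1 to 3. The groups stayed apart, with a ratio of means of 3.92. That this exceeds the 2.80-fold difference in CPM follows from the divisor, since the marker share was lower in DKD. Nothing further is read from the larger ratio, and whether these markers follow tubule content was not tested. With markers of single tubule segments the ratio ran from 3.62 (S2) through 4.07 (S3) to 5.69 (S1). Pank1 on the same measure had 8.16 ± 1.17 counts per 1000 marker counts in DKD and 6.22 ± 0.324 in Control, and Control replicate 3, far above the rest in CPM, was within the Control range at 6.29. The lowest DKD value of Pank1 lay just above the highest Control value (6.85 and 6.50), and whether the groups overlapped depended on the markers. Pank1 was apart with S1 markers (lowest DKD value 61.9, highest Control value 47.4) and S3 markers (39.7 for the lowest DKD value and 33.4 for the highest Control value), and overlapped with S2 markers (75.6 and 84.5) and the 8 general markers (10.9 and 11.1). Coasy had 5.16 ± 0.714 in DKD and 4.82 ± 0.239 in Control, with overlapping groups. Coasy overlapped with S2, S3 and general markers too, and was apart with S1 markers (lowest DKD value 40.0, highest Control value 36.6). The tubule marker share was 2.83% ± 0.518 of the counts in DKD and 4.44% ± 1.146 in Control, so Vnn1 and these markers differed in opposite directions.

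**Figure D4:**
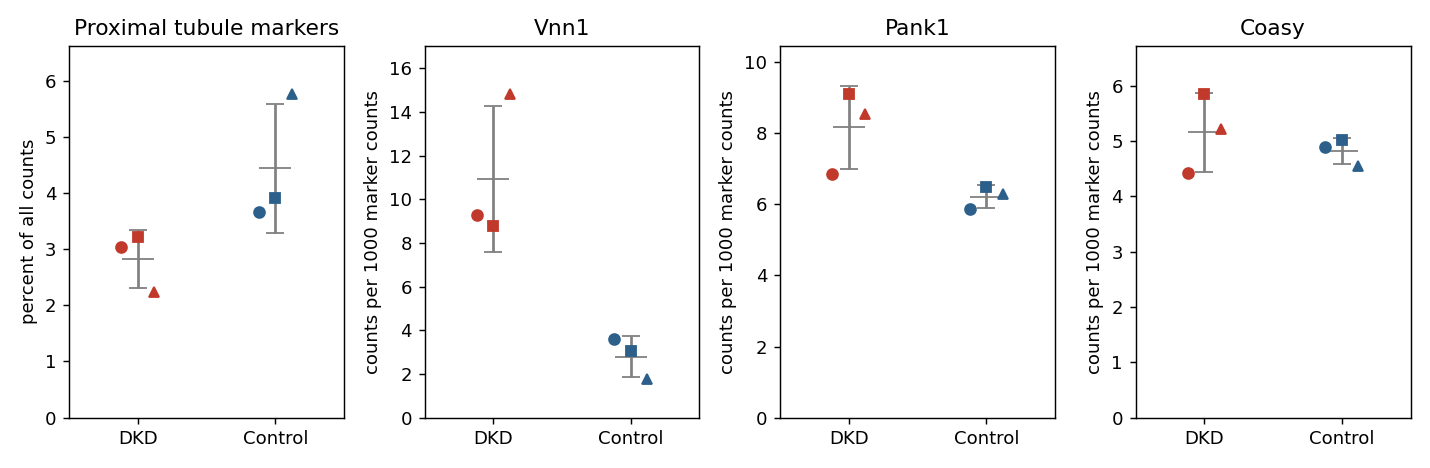
Share of counts in 26 proximal tubule markers (percent of all counts), and counts of Vnn1, Pank1 and Coasy per 1000 counts of those markers, in DKD and Control libraries (points) with mean ± SD. The marker share is lower in DKD (2.83% in DKD, 4.44% in Control), Vnn1 per marker count is higher (10.9 in DKD, 2.80 in Control), and Coasy overlaps.

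The genes whose profile over the 6 libraries was most like that of Vnn1 were looked up among 13195 named genes with at least 1 CPM. They were Slc6a9, a glycine transporter, at a distance of 0.080, Rundc3a at 0.11, Angptl4, an inhibitor of lipoprotein lipase, at 0.11, Reep6 at 0.12, and Upp1, a uridine phosphorylase, at 0.12. Slc6a9 was measured at 75.1 ± 15.8 CPM in DKD and 26.1 ± 0.976 CPM in Control, and transcripts of other genes hold 28.4% of its 31-base words. Upp1 was measured at 21.4 ± 4.40 CPM in DKD and 7.30 ± 0.872 CPM in Control. For Pank1 the nearest profiles were those of Pdk3, a pyruvate dehydrogenase kinase, at 0.073, Ghr, the growth hormone receptor, at 0.073, the kinase Mtor at 0.081, Galns at 0.0998 and Prima1 at 0.0999. These 5 genes had large Control SDs, such as Ghr with 416 ± 111 CPM in DKD and 460 ± 199 CPM in Control. That follows from choosing them for a profile like that of Pank1. The group differences of the 5 genes nearest Vnn1 follow from their choice in the same way.

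Other genes that supply, use or break down coenzyme A were read from 4 lists of 45 genes, of which 44 were tested. In these lists 1 gene rose and 2 fell (edgeR, adjusted p under 0.05), beside 0.725% of all genes tested that rose and 0.431% that fell. The median log2 fold change was 0.041 (−0.087 with library totals as the scale). In DKD 23 genes were higher and 21 lower, beside 50.25% of all genes tested that were higher. Without Control replicate 1, Control replicate 2, DKD replicate 1 or DKD replicate 3 the number called in these lists was 0, and without Control replicate 3 it was 6.

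Of the 11 genes of supply and turnover 0 were called by edgeR, and 4 had an unadjusted p under 0.05, 2 in each direction, beside 22.6% of all genes tested at that unadjusted p. Slc5a6, the transporter that takes up pantothenate and biotin, was measured at 15.0, 19.6 and 12.1 CPM in DKD replicates 1 to 3, against 24.9, 22.4 and 28.7 CPM in Control replicates 1 to 3. All DKD values of Slc5a6 lay below all Control values, as for 15.2% of all genes tested. Its log2 fold change was −0.70 ± 0.19 (SE, edgeR adjusted p 0.102), and transcripts of other genes hold 31.1% of its 31-base words. Enpp1, a cell-surface enzyme that cleaves nucleotide pyrophosphates, had a log2 fold change of −0.73 ± 0.15 (27.4 ± 5.35 CPM in DKD and 45.5 ± 2.73 CPM in Control, edgeR adjusted p 0.0638).

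Of the 15 acyl-CoA thioesterases, which free coenzyme A from acyl groups, 1 rose and 11 were higher in DKD, with a median log2 fold change of 0.46. Among all genes tested 0.725% rose and 50.25% were higher in DKD, and the list was not tested as a set. Acot2, the mitochondrial thioesterase, rose to 70.2, 62.1 and 88.1 CPM in DKD replicates 1 to 3, against 26.7, 23.6 and 18.6 CPM in Control replicates 1 to 3. This was a log2 fold change of 1.68 ± 0.19 (SE; edgeR adjusted p 0.0192). Its sequence is close to that of its neighbours in the family, and 37.8% of its 31-base words occur in transcripts of Acot1 and other genes, so reads may be divided among them.

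Of the 12 acyl-CoA synthetases tested, which consume free coenzyme A, 1 fell and 9 were lower in DKD, with a median log2 fold change of −0.31. The other 3 were higher, beside 50.25% of all genes tested that were higher and 0.431% that fell. Acss1, the mitochondrial acetyl-CoA synthetase, fell to 126, 119.5 and 122 CPM in DKD replicates 1 to 3, against 213, 185 and 213 CPM in Control replicates 1 to 3 (log2 fold change −0.73 ± 0.12 SE, edgeR adjusted p 0.0400). In the list of 6 genes that turn cysteamine or cysteine into taurine or carry taurine, Fmo1 fell. Fmo1, a flavin monooxygenase that oxidises hypotaurine, fell to 270.5, 252 and 222 CPM in DKD replicates 1 to 3, against 530, 557 and 768 CPM in Control replicates 1 to 3 (log2 fold change −1.32 ± 0.19 SE, edgeR adjusted p 0.0337). The list had 5 of 6 genes higher in DKD, beside 50.25% of all genes tested, and a median of 0.31.

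Since Vnn1 and Pank1 are known PPAR alpha targets, the receptor, its partner and other known targets were read as a further list of 35 genes that holds neither but shares 3 genes with the coenzyme A lists. Of these 7 rose and 0 fell (edgeR, adjusted p under 0.05), which is 20% of the list beside 0.725% of all genes tested that rose. The list was drawn up with earlier results of these data known, so its counts are a description and not a test. All DKD libraries lay above all Control libraries for 19 genes and below them for 5, beside 15.5% and 15.2% of all genes tested. The 5 were Ppara, its partner Rxra, Cpt1a, Cyp4a12a and Slc22a5. In the list 28 genes were higher and 7 lower in DKD, beside 50.25% of all genes tested that were higher. The median log2 fold change was 0.56, against 0.003 over all genes tested. The number called was 0 without Control replicate 1, Control replicate 2, DKD replicate 1 or DKD replicate 3, and 12 genes were called without Control replicate 3, while the median stayed between 0.43 and 0.70.

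The targets with the smallest p were Acot2, above, Angptl4, Cpt1b and Slc25a20. Angptl4 rose to 222, 194 and 261 CPM in DKD replicates 1 to 3, against 99.7, 87.5 and 91.7 CPM in Control replicates 1 to 3, with groups far apart as for Vnn1. Cpt1b, a carnitine palmitoyltransferase, had a log2 fold change of 1.19 ± 0.15 and Slc25a20, the carnitine carrier, one of 0.94 ± 0.12 (edgeR adjusted p 0.0262 and 0.0264). Another gene model covers 81.4% of the Cpt1b exons. The receptor gene Ppara itself, named here after its values were seen, was measured at 13.1 ± 2.59 CPM in DKD and 29.6 ± 6.55 CPM in Control, at a log2 fold change of −1.18 ± 0.21 (edgeR adjusted p 0.0527). Pank1 had overlapping groups and the fold change given above.

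**Figure D5:**
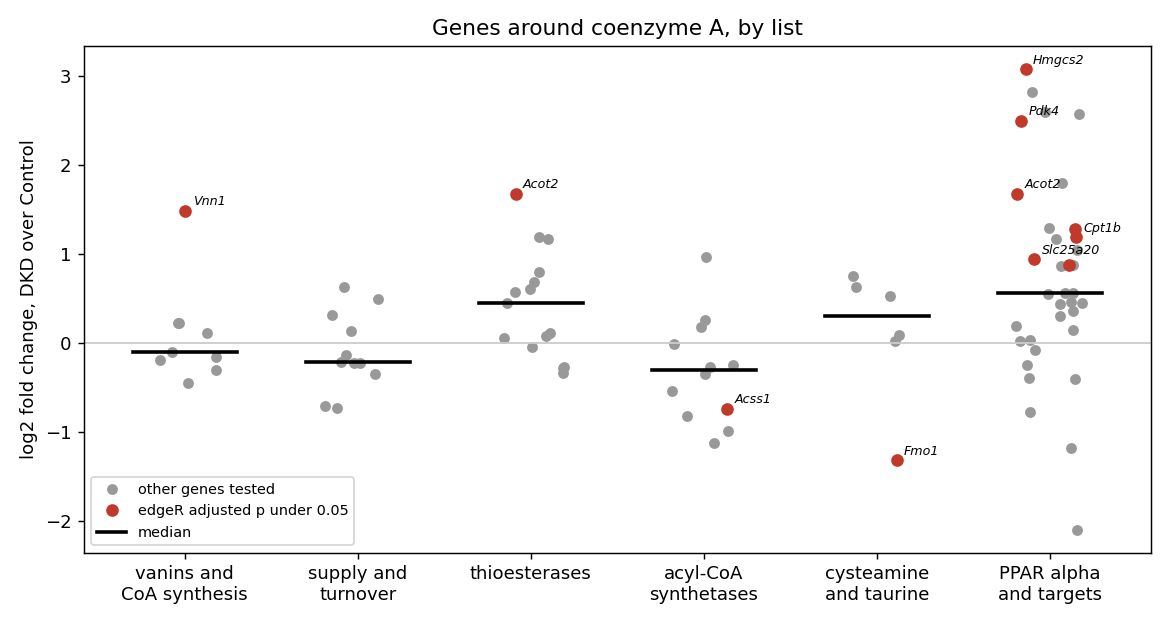
Log2 fold change (DKD over Control) of every tested gene of the 9-gene group and of the lists around it, with medians as lines and genes past an edgeR adjusted p of 0.05 in red. Vnn1 lies at 1.49 while the group's median is −0.099, thioesterases have a median of 0.46, and the PPAR alpha list has 0.56; Vnn1's place describes a gene chosen with this contrast known.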

How the data were processed

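Libraries of polyadenylated RNA were made with dUTP and read in pairs of 150 bases, per the labels' protocols. What the authors deposited are unnormalised counts for each Ensembl gene. The submitters' processing notes name fastp, HISAT2, StringTie, edgeR and build GRCm39; versions, annotation release and strand setting were not stated in what was used here. Symbols (55141 of 55401 identifiers), exon lengths, overlaps and 31-base words came from GENCODE M21 on GRCm38.

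Genes passing filterByExpr (minimum count 10) were scaled with TMM and tested with edgeR 4.0.16 (quasi-likelihood; R 4.3.3), modelling group only, with Benjamini-Hochberg adjustment over 19717 genes. SE is the fold change divided by the root of F. Profiles used log2 CPM with a prior count of 2. The procedure was run on simulated counts with planted changes, as a check of the code only. No simulated library was made to stand apart from its group, so that run does not bear on how the calls depend on single libraries. The limit of 3 counts at a count of 0 covers counting error only, while SE and SD also cover the spread between these libraries.

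The 9 genes and all lists were chosen with earlier results of these data known. Named list genes are up to 4 past the threshold with the smallest p, or otherwise the 2 with the smallest p. Alternatives were other scalings and filters, DESeq2 1.42.0, limma-voom (3.58.1), robust dispersion, a replicate block and leaving out each library.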

Additional observations from a re-analysis of the deposited data

How the results depend on the processing

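Vnn1 kept its direction in all 15 alternatives (log2 fold change 1.35 to 1.55) and passed the threshold in 10. The numbers of genes called, in the order all genes, the 9 genes, the coenzyme A lists and the PPAR alpha list, were 228, 1, 3 and 7. They were 56, 1, 1 and 3 with no filter, 516, 1, 4 and 11 with at least 1 CPM in at least 3 libraries, and 2483, 1, 11 and 21 with DESeq2. Leaving out 1 library they ran from 1 to 386, from 0 to 1, from 0 to 6 and from 0 to 12. With the replicate number as a block they were 0, 0, 0 and 0, where Vnn1 stood at 1.48 (log2, edgeR adjusted p 0.133). DKD and Control libraries of the same number had deviations correlated at −0.183, 0.0663 and −0.224. For libraries of unlike number the correlations ran from −0.204 to 0.268. With 3 libraries per group these correlations cannot decide whether the numbers pair libraries, and the labels do not say. With library totals the median of all genes was −0.13, and of all genes called 101 were higher and 174 lower, against 143 and 85. The tubule marker share differed by −1.61 percentage points (DKD minus Control), from −1.997 to −0.949 leaving out 1 library, and by −0.357, −0.106 and −0.331 for S1, S2 and S3 markers alone. The Pank1 share of the summed Pank genes, Pank4 included, differed by −1.79 percentage points, from −4.75 to 2.38 leaving out 1 library, so the difference has no settled sign. The cause of these shifts was not tested.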

Other observations

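A few more genes of the coenzyme A lists, already counted in the list totals above, are given by name here and were picked after their values were seen. Cdo1, the dioxygenase that starts taurine synthesis from cysteine, was measured at 240 ± 43.6 CPM in DKD and 142 ± 13.7 CPM in Control (edgeR adjusted p 0.0669). Slc6a6, the taurine transporter, was measured at 580 ± 46.0 CPM in DKD and 376 ± 28.5 CPM in Control (edgeR adjusted p 0.0726). Both had all DKD libraries above all Control libraries, as did 15.5% of all genes tested, without passing the threshold. Nudt19, a peroxisomal enzyme that hydrolyses coenzyme A and is known from kidney, had 759, 557 and 638 CPM in DKD replicates 1 to 3, against 390, 561 and 1321 CPM in Control replicates 1 to 3. Control replicate 3 was its highest library, as for Pank1 and Coasy.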
